A study of Homo sapiens with 6 samples.

Results

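The miR-30 family was followed through its guide and passenger arms in Huh7 cells, a human hepatoma cell line. Its members were the 10 rows of the miRNA table named hsa-miR-30a-5p, hsa-miR-30b-5p, hsa-miR-30c-5p, hsa-miR-30d-5p and hsa-miR-30e-5p (5 guide arms) and hsa-miR-30a-3p, hsa-miR-30d-3p, hsa-miR-30e-3p, hsa-miR-30c-1-3p and hsa-miR-30c-2-3p (5 passenger arms), out of 2588 mature human miRNAs listed. The 3p arm of miR-30b is listed too but was not among the members, so that it enters only the arm pairs. All 10 members were found and all 10 passed the filter on low counts, which kept 552 miRNAs. The cells had been transfected with Lipofectamine 2000, either with a plasmid carrying hsa_circ_0098181, a circular RNA made from SOX5 (3 overexpression samples), or with its control plasmid (3 control samples), and total RNA was taken after 48 h. Values of 3 samples are always listed from replicate 1 to replicate 3. The transfection was transient, and the level of hsa_circ_0098181 itself was not analysed here. The labels do not say whether the replicates came from separate cultures, so that p-values measure the spread between these samples, which may be technical.

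A miRNA precursor is a hairpin, from which the enzyme Dicer cuts a duplex of a 5p and a 3p arm. One arm, the guide, is kept by an Argonaute protein and finds its targets by pairing of its seed, the bases near its 5′ end, while the other arm, the passenger, is mostly lost. In the miR-30 family the 5p arm is the usual guide. The family is abundant in epithelial tissues, takes part in the development of the liver and its bile ducts, and restrains the epithelial to mesenchymal transition of hepatocytes by targeting the transcription factor SNAI1.

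Sequences were matched in RefSeq (GRCh38.p14) for 7 of the 10 members, all but miR-30b-5p, miR-30d-5p and miR-30d-3p. They are shown 5′ to 3′, with the seed (bases 2 to 8) in capitals, because the seed divides the arms into 3 groups and because some members are so alike that their reads are hard to tell apart.
miR-30a-5p: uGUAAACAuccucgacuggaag
miR-30c-5p: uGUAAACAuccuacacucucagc
miR-30e-5p: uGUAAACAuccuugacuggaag
miR-30a-3p: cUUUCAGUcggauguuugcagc
miR-30e-3p: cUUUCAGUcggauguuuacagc
miR-30c-1-3p: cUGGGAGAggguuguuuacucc
miR-30c-2-3p: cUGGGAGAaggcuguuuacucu

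The 3 guides printed share the seed GUAAACA and their first 12 bases. Counted from the 5′ end, miR-30a-5p and miR-30e-5p differ at a single base of 22, C13U, with the base of miR-30a-5p given first. The 3p arms of the same precursors also differ at a single base, G18A, with the base of miR-30a-3p first, and share the seed UUUCAGU. miR-30c-1-3p and miR-30c-2-3p share the seed UGGGAGA and differ at 3 of 22 bases. The sources used here do not say how reads that match several miRNAs were counted, so that the split between miR-30a and miR-30e on either arm is uncertain. For miR-30b-5p, miR-30d-5p and miR-30d-3p, which had no matched sequence, likeness to other members was not checked. Their levels may carry the same uncertainty. Among the 2370 mature miRNAs with a sequence, the only other one with any of the 3 seeds was miR-6788-5p, which shares UGGGAGA and had 2 counts over all 6 libraries.

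The family comes from 6 precursors in 3 clusters. MIR30E (chr1:40754355-40754446, plus strand) and MIR30C1 (chr1:40757284-40757372, plus strand) lie 2837 bases apart in introns of NFYC, which encodes a subunit of the transcription factor NF-Y. MIR30C2 (chr6:71376960-71377031, minus strand) and MIR30A (chr6:71403551-71403621, minus strand) lie 26519 bases apart in introns of the long non-coding RNA gene LINC00472, with a second non-coding gene, AL136164.2, over the same stretch. MIR30B and MIR30D are on chromosome 8, outside other annotated genes of their strand. These positions are those of GENCODE 29 on GRCh38, and the submitters' notes name hg38. miR-30c-5p has the same sequence in MIR30C1 and MIR30C2, so that only its passenger arms tell the 2 precursors apart.

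The libraries held 7144798 to 10786295 counts. miR-122-5p, the leading miRNA of hepatocytes, took 30.6% to 33.9% of the counts, and the 3 hepatocyte markers together had 346700 to 383951 TPM (counts scaled to a common library total). The log2 fold change was 0.19 for miR-122-5p (edgeR adjusted p = 0.314). It was 0.15 for miR-192-5p (edgeR adjusted p = 0.598) and -0.036 for miR-194-5p (edgeR adjusted p = 0.887). The 5 blood cell markers summed to 13.3 to 14.3 TPM in the overexpression group and 17.0 to 19.1 TPM in the control group, most of it miR-142-3p. Of the 3 tested, miR-142-3p had a log2 fold change of -0.50 (edgeR adjusted p = 0.314), and -0.57 without control replicate 3 (edgeR adjusted p = 0.018). The other tested markers lay above 0, miR-223-3p at 0.45 (edgeR adjusted p = 0.715) and miR-150-5p at 0.46 (edgeR adjusted p = 0.698). Too low to be tested, miR-142-5p had 0.362 to 0.501 TPM with overexpression and 0.14 to 0.278 TPM in the controls. Also untested, miR-451a was at 0.927 TPM or less. The 3 stromal and endothelial markers summed to 3274 to 3353 TPM in the overexpression group and 3153 to 3257 TPM in the control group, nearly all of it miR-126-3p. Its log2 fold change was 0.16 (edgeR adjusted p = 0.562), while miR-143-3p was at -0.023 (edgeR adjusted p = 0.931) and miR-145-5p at -0.30 (edgeR adjusted p = 0.698). Among the tested markers, the groups did not overlap in TPM for miR-142-3p and miR-143-3p, lower with overexpression, and for miR-126-3p, higher. Of all miRNAs tested, 18.3% did not overlap. The 2 muscle markers had 1.45 to 2.13 TPM with overexpression and 1.68 to 2.04 TPM in the controls. The 2 neural markers had 115 to 131 TPM and 98.6 to 149 TPM, in the same order of groups. None of these markers was at 0 in all libraries, and their part in the results was not tested. Control replicate 3 stood apart. Over 152 abundant miRNAs, its median absolute log2 difference from each of the other controls was 0.21, against 0.049 between control replicates 1 and 2 and 0.079 to 0.11 within the overexpression group. From overexpression replicates 1 to 3 it differed by 0.12, 0.19 and 0.16. Control replicates 1 and 2 differed from the overexpression libraries by 0.13 to 0.19. Leaving out control replicate 3 thus removes a control that was nearer to each overexpression library than to the other controls. Results that rest on this library are given with and without it.

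The 5 guides together made up 0.474% to 0.554% of all counts and the 5 passengers 0.0771% to 0.0814%. miR-30c-5p led the family in every library. Its level was 2622, 2361 and 2674 TPM with overexpression and 3045, 2902 and 2798 TPM in the controls, which placed it between rank 31 and rank 36 of all miRNAs. It supplied 52.0% ± 1.75 of the guide counts (SD, n = 6). The next in the order of mean TPM were miR-30d-5p (16.1% ± 2.39 of the guide counts, SD, n = 6) and miR-30e-5p (14.8% ± 1.10), whose order was not settled, since miR-30d-5p was the higher in 4 of 6 libraries. miR-30b-5p gave 11.4% ± 0.826 of the guide counts and miR-30a-5p 5.65% ± 0.474 (SD, n = 6).

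A passenger arm, miR-30e-3p, stood among the guides with a mean of 634 TPM. It was below miR-30e-5p in 6 of 6 libraries and above miR-30b-5p in 4 of 6, with overlapping ranges for the latter pair. The other passengers were lower. miR-30a-3p had a mean of 84.6 TPM, miR-30c-1-3p 30.0 TPM, miR-30d-3p 27.8 TPM and miR-30c-2-3p 9.43 TPM. miR-30c-1-3p and miR-30d-3p could not be ordered beyond their spread, with the former higher in 5 of 6 libraries and overlapping ranges. All neighbours in the order other than these 3 pairs kept the same order in 6 of 6 libraries without overlap. The 7 mature forms with a sequence are 22 or 23 bases long, so that levels in TPM, which carry no length correction, can be compared between them. For miR-30b-5p, miR-30d-5p and miR-30d-3p the length was not checked. Preferences of library preparation for single sequences were not measured.

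The first comparison asked whether hsa_circ_0098181 changed the level of the members. No member passed the test. In edgeR's quasi-likelihood test over 552 miRNAs, 0 of the 10 members had an adjusted p under 0.05, and 0 had an unadjusted p under 0.05, likewise with DESeq2 (0) and limma (0). Over all miRNAs tested, 0% had an adjusted p under 0.05 and 9.06% an unadjusted p under 0.05. The log2 fold changes of the members ran from -0.17 for miR-30b-5p to 0.26 for miR-30c-1-3p. Of the 10 members, 3 were below 0 with TMM factors, which correct for the composition of a library, and 6 with the library size alone, where the median of all miRNAs tested moved from 0.0038 to -0.11. Of all miRNAs tested, 49.1% were below 0 by the former scaling and 70.5% by the latter. In bulk RNA, a change in the number of cells that express a miRNA and a change per cell cannot be told apart.

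miR-30b-5p, a guide of the chromosome 8 cluster, had 576, 503 and 555 TPM with overexpression and 693, 684 and 602 TPM in the controls. Every overexpression library was below every control library, but control replicate 3 was the nearest. After TMM scaling, control replicate 3 (553 CPM, the same unit on the scaled libraries) fell among the overexpression libraries (547 to 578 CPM), away from control replicates 1 and 2 (690 and 663 CPM). The log2 fold change was -0.17 (standard error, SE, 0.10; 95% confidence interval, CI, -0.39 to 0.054; edgeR adjusted p = 0.598). Without control replicate 3 it was -0.28 (SE 0.078, edgeR adjusted p = 0.0128).

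miR-30d-5p, the guide made from the neighbouring precursor, showed the opposite arrangement. It had 849, 833 and 855 TPM with overexpression and 709, 752 and 1046 TPM in the controls. The overexpression libraries lay close together, between control replicates 1 and 2 below and control replicate 3 above. The log2 fold change was 0.14 (SE 0.12, 95% CI -0.11 to 0.39, edgeR adjusted p = 0.698), and without control replicate 3 it was 0.28 (SE 0.076, edgeR adjusted p = 0.0103). Without that library, 2 of the 10 members, miR-30b-5p and miR-30d-5p, had an adjusted p under 0.05, 1 lower and 1 higher, where 9.91% of 565 miRNAs did (6.73% lower and 3.19% higher). At an unadjusted p under 0.05 the members numbered 3, with miR-30c-5p as the third, and all miRNAs 21.1%.

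The most abundant guide, miR-30c-5p, was lower in every overexpression library than in any control library in TPM, at 2553 ± 168 TPM (SD, n = 3) against 2915 ± 124 TPM (SD, n = 3). With TMM scaling the groups overlapped, since control replicate 3 had 2573 CPM and the overexpression libraries 2565 to 2766 CPM. Its log2 fold change was -0.080 (95% CI -0.26 to 0.10, edgeR adjusted p = 0.757) and -0.16 without control replicate 3 (edgeR adjusted p = 0.141). Of the 10 members, 2 (miR-30b-5p and miR-30c-5p) did not overlap between groups in TPM, where 18.3% of all miRNAs tested did not.

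miR-30e-5p had 707, 749 and 756 TPM with overexpression and 816, 899 and 731 TPM in the controls. In TPM, control replicate 3 lay inside the range of the overexpression group. After TMM scaling it had 673 CPM, below the overexpression libraries (710 to 813 CPM). The log2 fold change was -0.032 (95% CI -0.27 to 0.20, edgeR adjusted p = 0.92). It was -0.15 without control replicate 3 (edgeR adjusted p = 0.251), 0.018 without overexpression replicate 1 and 0.042 without control replicate 2. miR-30a-5p, the least abundant guide, had 283, 299 and 295 TPM against 279, 288 and 330 TPM in the same order. Its groups overlapped, with control replicate 3 highest, and its log2 fold change was 0.087 (95% CI -0.13 to 0.30, edgeR adjusted p = 0.772), or -0.033 when only the library size was used for scaling.

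**Figure D1:**
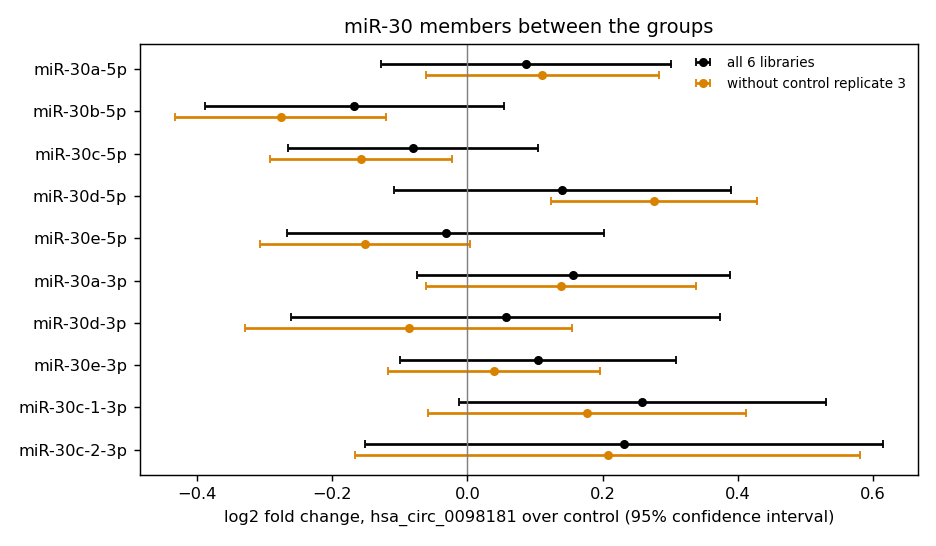
Log2 fold change of each member, overexpression over control, after TMM scaling, with its 95% confidence interval from edgeR (x axis); black points use all 6 libraries and orange points leave out control replicate 3. All 10 black intervals include 0, while the orange intervals of miR-30b-5p and miR-30c-5p lie below 0 and that of miR-30d-5p above 0.

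The guides of the family did not vary in 1 direction across the libraries. In control replicate 3, the log2 difference from the mean of control replicates 1 and 2 after TMM scaling was 0.42 for miR-30d-5p and 0.13 for miR-30a-5p, but -0.29 for miR-30b-5p, -0.18 for miR-30c-5p and -0.32 for miR-30e-5p. The mean of the overexpression group differed from the same control replicates 1 and 2 by 0.30, 0.13, -0.26, -0.14 and -0.13 in the same order of members. The sign was thus the same for each guide, but both differences use control replicates 1 and 2. Over the 6 libraries, Pearson's r of the TMM-scaled log2 level was -0.98 between miR-30b-5p and miR-30d-5p, 0.92 between miR-30b-5p and miR-30c-5p, and 0.80 between miR-30a-5p and miR-30d-5p. These values describe 6 points that share their libraries and scaling.

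**Figure D2:**
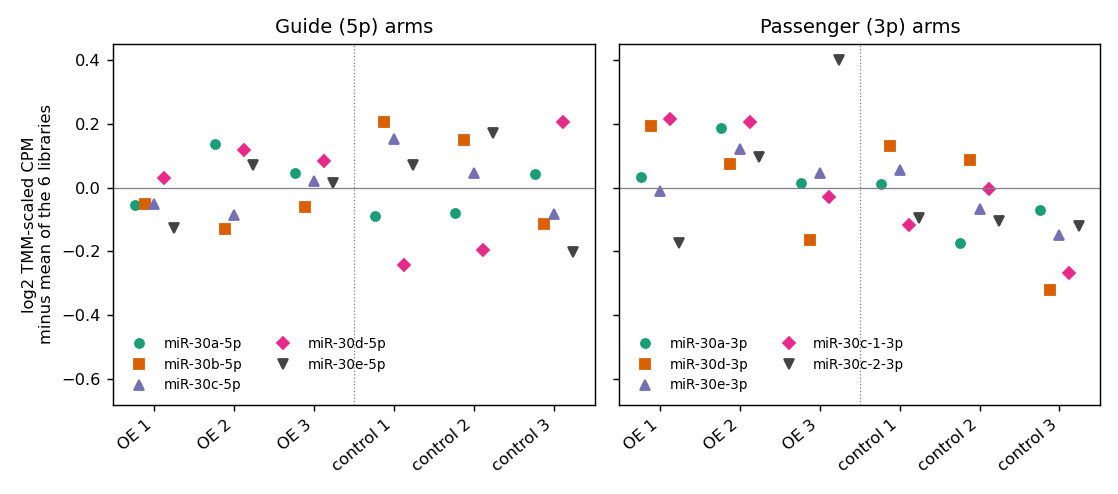
Deviation of each member in each library from its mean over the 6 libraries, as log2 of TMM-scaled CPM (y axis), for the guide arms on the left and the passenger arms on the right; the dotted line separates the overexpression (OE) from the control libraries. miR-30d-5p is lowest of the guides in control replicates 1 and 2 and highest in control replicate 3, where miR-30b-5p, miR-30c-5p and miR-30e-5p are below 0.

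The passenger arms had log2 fold changes above 0 with TMM factors, with a median of 0.16, and 0 of the 5 passed the test. With the library size alone, miR-30d-3p (-0.051) and miR-30e-3p (-0.010) were below 0. miR-30e-3p, the abundant passenger, varied little in TPM, at 628, 635 and 633 TPM with overexpression and 662, 625 and 623 TPM in the controls. Its groups overlapped, and its log2 fold change was 0.10 (95% CI -0.099 to 0.31, edgeR adjusted p = 0.698), or 0.039 without control replicate 3.

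miR-30a-3p had 86.2, 88.6 and 82.5 TPM against 85.5, 77.3 and 87.5 TPM in the same order. These ranges overlapped in TPM. After TMM scaling miR-30a-3p was the only one of the 10 members whose groups did not overlap, with 85.3 to 96.2 CPM in the overexpression group and 75.0 to 85.1 CPM in the control group, where 15.4% of all miRNAs tested did not overlap (8.88% higher and 6.52% lower with hsa_circ_0098181). The log2 fold change was 0.16 (95% CI -0.075 to 0.39, edgeR adjusted p = 0.618).

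miR-30c-1-3p, the passenger of the NFYC precursor, had 34.6, 31.8 and 28.4 TPM with overexpression and 27.7, 30.8 and 27.0 TPM in the controls. The groups overlapped, and the 2 highest values were those of overexpression replicates 1 and 2. Of the 10 members it had the smallest unadjusted p, 0.06 from edgeR, with a log2 fold change of 0.26 (SE 0.13, 95% CI -0.013 to 0.53, edgeR adjusted p = 0.562). The log2 fold change was 0.18 without control replicate 3 (edgeR unadjusted p = 0.137, adjusted p = 0.433) and 0.15 with the library size alone.

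miR-30c-2-3p, the passenger of the LINC00472 precursor, had 66, 78 and 99 counts with overexpression and 95, 78 and 67 counts in the controls. On the TPM scale it stood at 8.27, 9.21 and 11.9 against 8.81, 8.99 and 9.38. The widest gap within the overexpression group, 66 counts (95% exact Poisson interval 51.0 to 84.0) against 99 counts (80.5 to 121), left overlapping intervals, which cover counting error only. The log2 fold change was 0.23 (95% CI -0.15 to 0.61, edgeR adjusted p = 0.653). It was 0.082 without overexpression replicate 3 and 0.36 without overexpression replicate 1. miR-30d-3p, at 31.5, 26.8 and 23.9 TPM against 30.4, 30.3 and 24.1 TPM, overlapped fully between groups, with a log2 fold change of 0.057 (edgeR adjusted p = 0.892) that turned to -0.087 when control replicate 3 was left out and to -0.028 when overexpression replicate 1 was.

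The balance of the arms within a precursor was compared next, because a ratio of counts from the same library does not depend on its scaling. The 3p arm made up 45.1% ± 2.11 of the miR-30e counts, 22.3% ± 1.10 of the miR-30a counts and 3.28% ± 0.712 of the miR-30d counts (SD, n = 6). The 3 precursors kept this order in all 6 libraries without overlap. Among the 119 arm pairs with at least 10 counts in every library for each arm, the 5p arm was the more abundant in 71, and the median absolute log2 ratio of the arms was 3.69. miR-30e was the eighth most even of these pairs, with a log2 ratio of 3p over 5p of -0.29. miR-30a (-1.80) and miR-30d (-4.91) leaned further to the 5p arm, and miR-30b (-7.38), whose 3p arm is no member, furthest of the 4.

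**Figure D3:**
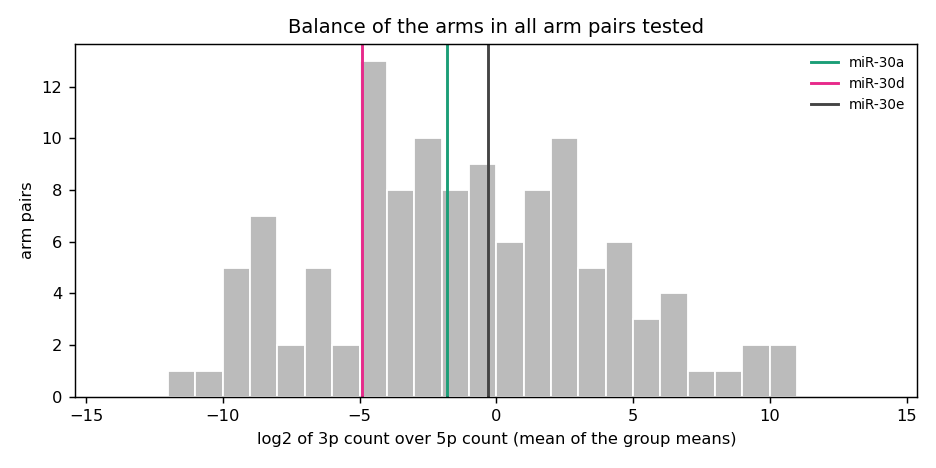
Number of arm pairs (y axis) by the log2 ratio of 3p to 5p counts (x axis, mean of the 2 group means) over all 119 pairs; coloured lines mark the 3 miR-30 precursors with both arms among the members. miR-30e lies at -0.29, next to equal arms at 0, miR-30a at -1.80 and miR-30d at -4.91; miR-30b, at -7.38, is counted but not marked.

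No change in the balance with hsa_circ_0098181 was detectable. In limma's test over all 119 pairs, 0 of the 3 pairs with both arms among the members had an adjusted p under 0.05, and 0 an unadjusted p under 0.05, where 0% of all pairs passed the former and 12.6% the latter. The log2 ratio differed between the groups by 0.071 for miR-30a (95% CI -0.26 to 0.40, limma adjusted p = 0.862) and by 0.13 for miR-30e (95% CI -0.21 to 0.47, limma adjusted p = 0.728). For miR-30b it was 0.033 (limma adjusted p = 0.923). For miR-30d the difference was -0.085 (95% CI -0.63 to 0.46, limma adjusted p = 0.863). Its 3p share was 3.57%, 3.12% and 2.72% with overexpression and 4.11%, 3.88% and 2.25% in the controls. Control replicate 3 was thus lowest of all libraries, and without it the difference was -0.37 (95% CI -0.77 to 0.027, limma adjusted p = 0.303).

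For miR-30c the passengers of both precursors were summed, since their guide is the same. They made up 1.63%, 1.74% and 1.51% of the miR-30c-5p count with overexpression and 1.20%, 1.37% and 1.30% in the controls. All 3 overexpression libraries lay above all 3 control libraries. The difference of the log2 ratio was 0.33 (two-sided exact permutation test, p = 0.1, adjusted p = 0.667 over 10 ratios between members). With 3 samples against 3 a p of 0.1 is the smallest possible, so that none of the 10 ratios could pass the threshold. The difference did not rest on control replicate 3, since it was 0.34 without it and 0.28 to 0.39 when any other library was left out. Among the 119 arm pairs the groups did not overlap in 18.5%, and in 8.4% the 3p share was the higher in the overexpression group.

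Members of the same cluster were then set against each other. In the chromosome 8 cluster, the count of miR-30b-5p was 0.678, 0.604 and 0.649 of that of miR-30d-5p with overexpression, and 0.978, 0.91 and 0.575 in the controls. The overexpression libraries were alike, while the control libraries included both the highest values and the lowest. The log2 ratio differed by -0.32 with all libraries (two-sided exact permutation test, p = 0.4, adjusted p = 0.667 over the 10 ratios) and by -0.55 without control replicate 3.

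In the NFYC cluster, miR-30e-3p was counted 18.1 to 22.3 times as often as miR-30c-1-3p in the overexpression group and 20.3 to 23.9 times in the control group, which is -0.15 on the log2 scale (exact permutation test, p = 0.2, adjusted p = 0.667). In the LINC00472 cluster, miR-30a-3p was counted 6.91 to 10.4 times and 8.6 to 9.71 times as often as miR-30c-2-3p, which is -0.056 on the log2 scale (exact permutation test, p = 0.9, adjusted p = 0.9). Both pairs of ranges overlapped. Between the clusters, the passenger of miR-30c from NFYC outnumbered that from LINC00472 by 3.33 ± 0.909 times (SD, n = 3) in the overexpression group and 3.15 ± 0.271 times (SD, n = 3) in the controls, which lay within the spread (log2 difference 0.047, two-sided exact permutation test, p = 0.8, adjusted p = 0.889).

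The same clusters were compared through miR-30a and miR-30e. The 5p ratio of miR-30a to miR-30e was 0.401, 0.399 and 0.39 with overexpression and 0.342, 0.32 and 0.452 in the controls. As for the chromosome 8 pair, the control group spanned both sides of the overexpression group, with control replicate 3 alone on its side. The log2 difference was 0.11 (two-sided exact permutation test, p = 0.4, adjusted p = 0.667) and 0.26 without control replicate 3. The 3p ratio of the same precursors was 0.13 to 0.14 in the overexpression group and 0.124 to 0.14 in the control group (log2 difference 0.051, two-sided exact permutation test, p = 0.5, adjusted p = 0.714).

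Other miRNAs known to restrain the epithelial to mesenchymal transition were taken as a list of 8: the miR-200 family (miR-200a-3p, miR-200b-3p, miR-200c-3p, miR-141-3p and miR-429), which targets ZEB1 and ZEB2, with miR-205-5p, miR-203a-3p and miR-34a-5p. Of these, 6 were tested and 0 passed edgeR's test after adjustment (0 also at an unadjusted p under 0.05), with 3 above and 3 below 0, from -0.13 for miR-200c-3p to 0.033 for miR-200b-3p. Their median log2 fold change was -0.023, beside 0.0038 for all miRNAs tested and 0.096 for the miR-30 members. In TPM, without TMM factors, the groups did not overlap for miR-200a-3p, miR-200c-3p and miR-429, all lower with overexpression. The other tested miRNAs of the list overlapped. Of all miRNAs tested, 18.3% did not overlap in TPM. miR-34a-5p, a target of p53, was the most abundant of the 8, with 4656 to 5533 TPM, while miR-205-5p (at most 0.98 TPM) and miR-203a-3p (at most 0.84 TPM) were too low to be tested.

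The miRNAs whose TMM-scaled log2 levels followed those of miR-30c-5p most closely over the 6 libraries, among 146 others with a mean of at least 100 TPM, were miR-20a-5p (Pearson's r = 0.89, Spearman's rho = 0.83), miR-424-5p (r = 0.87, rho = 0.71) and miR-590-3p (r = 0.86, rho = 0.83). Their adjusted p from edgeR was between 0.421 and 0.772. They were picked as the highest of 146 values over 6 points that share their scaling, and 0 of the 146 had r over 0.9. A link to miR-30c-5p was not tested.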

How the data were processed

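Huh7 cells transfected with the hsa_circ_0098181 plasmid (n = 3) or the control plasmid (n = 3) were analysed by miRNA sequencing of total RNA, grouped by their sample titles. The authors deposited counts, the number of reads per mature miRNA, and TPM values, which equal the counts scaled to a common library total to within 0.00303 and carry no correction for length. The submitters' processing notes name TopHat2 2.0.9, TopHat, Bowtie and hg38, with no role for each, and the mismatches allowed and the counting of reads with more than 1 matching miRNA are not given in the sources used here. Depth was 7144798 to 10786295 counts per library.

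From the counts, R 4.3.3 with edgeR 4.0.16 was used for a two-sided quasi-likelihood test with TMM factors, the group as the only term, filterByExpr (minimum count 10, minimum total 15) and Benjamini-Hochberg adjustment over all miRNAs tested, at a threshold of 0.05. Arm ratios (0.5 added to each count) of all pairs with at least 10 counts in every library were tested with limma 3.58.1, and 10 ratios between members by exact permutation over samples. The edgeR test and the limma test of the arm ratios were first run on simulated data, and the permutation test was not. Alternatives were DESeq2 1.42.0, other scalings and filters, and limma on log2 of CPM with 1 added. Others were 5 added to each count of a ratio, a robust fit, a replicate block and leaving out each library. The miRNAs named were the members, those that share a seed, the fixed marker and epithelial lists, and the 3 closest to the most abundant member. The members, lists and tests were chosen with earlier results of these data known. Positions come from GENCODE 29 and sequences from RefSeq.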

Additional observations from a re-analysis of the deposited data

How the results depend on the processing

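The number of members past edgeR's adjusted threshold was 0 in the test reported and 0 under every alternative that kept all 6 libraries and 0 to 2 with a library left out, the 2 without control replicate 3. Over all miRNAs, edgeR called 0 with all libraries (50 at an unadjusted p under 0.05; DESeq2 0 and 41), 3 with the library size alone, 6 without a filter and 56 without control replicate 3. Of the 3 arm pairs of members, 0 were called under any alternative. Without overexpression replicate 2, miR-30a-5p was at 0.035, miR-30a-3p at 0.096 and miR-30e-3p at 0.066. Of 140 member fold changes under the alternatives, 130 kept their direction and side of the threshold. The reversals were miR-30a-5p (-0.033), miR-30d-3p (-0.051) and miR-30e-3p (-0.010) with the library size alone, where all miRNAs moved down, and miR-30d-3p (-0.016) after the most abundant miRNA was taken out of the library size. With a library left out, miR-30d-3p ran from -0.087 to 0.16 (-0.028 without overexpression replicate 1, -0.087 without control replicate 3) and miR-30e-5p from -0.15 to 0.042 (-0.15 without control replicate 3, 0.018 without overexpression replicate 1, 0.042 without control replicate 2). The log2 ratio difference of the miR-30d arms ran from -0.37 to 0.079 (0.016 without overexpression replicate 3, 0.079 and 0.035 without control replicates 1 and 2), that of miR-30c-1-3p to miR-30c-2-3p from -0.13 to 0.27 (-0.13 without overexpression replicate 1, -0.016 without control replicate 3) and that of miR-30a-3p to miR-30c-2-3p from -0.17 to 0.12 (0.12 without overexpression replicate 3). The cause of these changes was not tested. The adjusted p of a member was at least 0.273 in all fits but that without control replicate 3. Whether the same replicate number marks a pair could not be settled with 3 libraries in each group. The deviations of same-numbered libraries had correlations of -0.025, 0.15 and 0.24 over 152 miRNAs. Both libraries of replicate 3 and control replicate 2 were closest to their own number, and the others were not. With the replicate block 0 members were called, miR-30b-5p was at -0.16 and miR-30d-5p at 0.15, and no call changed. Shares of each guide in all member counts, in place of the guide counts, were lower by construction.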
